A study of Mus musculus with 25 samples.

Results

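MHC class I molecules display peptides from inside the cell to CD8 T cells, and nearly every nucleated cell carries them, CD4 T cells included. Described here are 9 listed genes of that pathway: B2m, H2-K1, H2-D1, H2-Q7, H2-T23, Tap1, Tap2, Tapbp and Nlrc5. They were found by matching the Ensembl identifiers of a table of read counts to mouse gene symbols, and all 9 were present among its 46078 genes and among the 14703 that passed the filter on low counts. The rule names the genes and uses no measured value, but the list was drawn up with earlier results of these data known.

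The RNA was that of CD4 T cells sorted from C57BL/6NTac animals of 3 genotypes. Wild-type animals were compared with carriers of a knock-out or of a knock-in of miR-150, a microRNA abundant in mature lymphocytes. Each genotype was sampled naive and at day 7 after induction of EAE (experimental autoimmune encephalomyelitis, a mouse model of multiple sclerosis driven by CD4 T cells that recognise myelin), which gave 6 groups and 25 libraries. Wild-type day 7 had 5 libraries and every other group had 4. The labels do not give the age or sex of the mice, the tissue the cells were sorted from, the way the knock-in allele is expressed, or whether each library is 1 animal, so p-values measure the spread between these libraries, which may be partly technical. Replicate numbers below only name libraries, in the order of deposit.

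In a class I molecule a heavy chain is paired with beta-2 microglobulin, the product of B2m. H2-K1 and H2-D1 encode the classical heavy chains of this strain, while H2-Q7 and H2-T23 encode the non-classical chains Qa-2 and Qa-1. Tap1 and Tap2 form the transporter that carries peptides into the endoplasmic reticulum, and Tapbp encodes tapasin, which bridges the transporter to empty class I molecules. Nlrc5 encodes the class I transactivator, a coactivator that is recruited to class I promoters by DNA-bound factors. Interferons are known to raise the expression of the whole set.

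Total counts per library ran from 6024043 to 49489134, with a median of 16312725, and the lowest count of any of the 9 genes in any library was 705. The wild-type naive libraries were among the shallowest. Ribosomal RNA and similar transcripts took 20.5% to 32.4% of the counts, and this share moved with stage. It was 20.5% to 23.2% in wild-type naive against 24.3% to 27.8% in wild-type day 7 libraries and 22.7% to 24.1% in knock-in naive against 25.1% to 28.5% in knock-in day 7 libraries, with no overlap in either genotype. The knock-out libraries overlapped, at 23.6% to 25.8% naive and 21.9% to 32.4% at day 7. Mir150 had no count in the 8 knock-out libraries, against 20.2 ± 4.86 CPM (counts scaled to a common library size; SD, n = 4) in wild-type naive and 14.3 ± 1.42 CPM (SD, n = 4) in knock-in naive cells. The 11 CD4 T cell markers fixed for the check summed to 2866 to 3235 CPM in every library. Knock-out day 7 replicate 3 was the deepest library and received the lowest limma quality weight, 0.144, and knock-out naive replicate 4 had the highest summed MHC class II transcripts, 83.7 CPM. The calls among the 9 genes in comparisons that use knock-out cells were therefore also made without these 2 libraries. They were then the same: Tap1 in the knock-out, Tap1 and Nlrc5 in the average over genotypes, and none in the genotype comparisons. Knock-out naive replicate 4 was the lowest of its group for Tap1 (217.3 CPM) and Nlrc5 (414 CPM). Knock-out day 7 replicate 3 was the highest of its group for Nlrc5 (413 CPM). Leaving both out therefore tends to widen the falls of Tap1 and Nlrc5, so the unchanged calls are not a check of those falls.

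Of the 9 genes, 7 had a promoter in the RefSeq-derived table for GRCm38.p6 (mm10), each window running from 250 bases before to 50 bases after a start site. Tap2 and Nlrc5 had none. The windows of 4 genes are printed because they let the light chain, the classical heavy chains and the transporter be compared letter by letter. Capitals mark letters that match, on either strand, 6 motifs: both forms of the interferon response element (GAAANNGAA and GAANNGAAA, which can overlap), the gamma-activated site (TTCNNNGAA), a kappa-B motif, the core of the X2 box (TGACG) and the Y box (CCAAT). A match is a description of letters and shows no binding.

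B2m, chr2:122147437-122147736, plus strand: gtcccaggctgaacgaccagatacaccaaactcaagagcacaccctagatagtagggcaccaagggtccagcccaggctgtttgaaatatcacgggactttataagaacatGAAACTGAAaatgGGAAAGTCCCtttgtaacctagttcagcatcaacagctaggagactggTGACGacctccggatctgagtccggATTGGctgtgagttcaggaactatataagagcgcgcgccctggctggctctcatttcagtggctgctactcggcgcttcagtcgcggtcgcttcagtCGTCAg
H2-K1, chr17:34000284-34000583, minus strand: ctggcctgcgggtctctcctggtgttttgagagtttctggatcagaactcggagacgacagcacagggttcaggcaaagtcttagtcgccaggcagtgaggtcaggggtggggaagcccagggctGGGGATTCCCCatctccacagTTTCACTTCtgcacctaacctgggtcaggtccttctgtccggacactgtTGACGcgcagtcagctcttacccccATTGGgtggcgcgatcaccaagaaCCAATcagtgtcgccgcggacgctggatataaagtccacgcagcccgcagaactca
H2-D1, chr17:35262844-35263143, plus strand: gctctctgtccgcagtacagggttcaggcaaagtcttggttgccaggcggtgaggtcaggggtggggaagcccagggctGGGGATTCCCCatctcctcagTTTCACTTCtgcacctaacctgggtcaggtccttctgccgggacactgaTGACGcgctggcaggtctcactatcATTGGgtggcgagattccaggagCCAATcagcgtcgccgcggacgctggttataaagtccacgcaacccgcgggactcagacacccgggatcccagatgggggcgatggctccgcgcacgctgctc
Tap1, chr17:34187306-34187605, plus strand: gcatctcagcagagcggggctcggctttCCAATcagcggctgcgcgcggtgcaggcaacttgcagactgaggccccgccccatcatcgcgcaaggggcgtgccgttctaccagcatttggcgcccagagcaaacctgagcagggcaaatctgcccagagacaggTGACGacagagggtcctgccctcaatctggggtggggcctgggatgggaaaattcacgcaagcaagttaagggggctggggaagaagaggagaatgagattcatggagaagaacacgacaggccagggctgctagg

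The windows of 3 of the 4 heavy chain genes were built alike. H2-K1, H2-D1 and H2-Q7 each held a kappa-B match, then the second form of the interferon response element, then an X2 core and 2 Y boxes, 1 on each strand. The B2m window held the first form of the interferon response element 139 bases before the start site, a kappa-B match, an X2 core and a Y box, with another X2 core on the other strand past the start site. From the first base of the X2 core to the first base of the Y box the distance was 25 bases in B2m, H2-K1 and H2-D1 and 24 in H2-Q7. Such a pair at 24 or 25 bases on the gene's strand occurred in 26 of 32817 mouse promoters of the same length, 0.0792%, and another class I gene, H2-M3, was among them. This spacing was looked for after the windows had been seen. Tap1 held an X2 core 86 bases before its start site and a Y box further upstream, but no match to either interferon form in this window. H2-T23 held the first interferon form at 123 bases and a Y box at 52 bases before its start site. Tapbp held 2 Y boxes and neither interferon form. Among all these promoters the first interferon form occurred in 8.55%, the second in 7.52%, the kappa-B motif in 8.46%, the gamma-activated site in 8.29%, the X2 core in 20.8% and the Y box in 37.4%.

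Of the 9 genes, 7 lie on chromosome 17 in the H2 complex. On mm10, in GENCODE M21, Tapbp spans chr17:33915899-33929292, H2-K1 chr17:33996017-34000347, Tap1 chr17:34187553-34197225, Tap2 chr17:34203527-34216321, H2-D1 chr17:35262730-35267499, H2-Q7 chr17:35439155-35443773 and H2-T23 chr17:36029773-36032855. B2m lies at chr2:122147686-122153083 and Nlrc5 at chr8:94434356-94527272. All 9 are annotated as protein coding, and H2-K1 and H2-T23 are on the minus strand.

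Heavy chain genes are near copies, so reads of one can be counted for another. Of the 150-base windows of H2-Q7 protein-coding transcripts, 8.31% occurred unchanged in a transcript of another gene, most often H2-Q6. The share was 1.54% for H2-D1, 0.831% for H2-T23 and 0 for the other 6 genes. Opposite-strand genes covered 24.9% of the Tapbp exon bases (Gm19412), 14.1% of those of Tap2 (Gm15821) and 3.87% of those of Tap1 (Psmb9). A gene on the same strand, Zbtb22, covered 4.11% of the Tapbp exon bases. Whether the counting used strand is not given in the sources used here, and reads of such pairs may be mixed.

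Per kilobase of annotated exon the light chain was the most abundant of the set in these cells and the transporter subunits the least. Averaged over the 25 libraries, B2m stood at 630 ± 55.1 CPM per kb (SD over libraries). H2-K1 followed at 406 ± 24.6 CPM per kb and H2-D1 at 340 ± 20.9 CPM per kb. H2-Q7 was next at 87.3 ± 8.41 CPM per kb.

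B2m, H2-K1, H2-D1 and H2-Q7 kept this order in all 25 libraries. Below them Nlrc5 (51.6 ± 5.64 CPM per kb) and Tapbp (50.2 ± 4.81 CPM per kb) could not be ordered: Nlrc5 was the higher in 17 of 25 libraries. Tapbp was above H2-T23 (44.6 ± 4.66 CPM per kb) in 22 of 25. H2-T23 was above Tap1 (38.0 ± 4.38 CPM per kb), and Tap1 above Tap2 (29.4 ± 2.21 CPM per kb), in all 25. Exon length here is the union of all annotated exons, so transcripts shorter than that union are understated. The union was 5476 bases for Tap1 and 2889 for H2-T23. Their protein-coding transcripts held only 3097 and 1323 different windows of 150 bases. The order below H2-Q7, and the place of Tap1 among the least abundant, therefore depend on the length used.

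**Figure D1:**
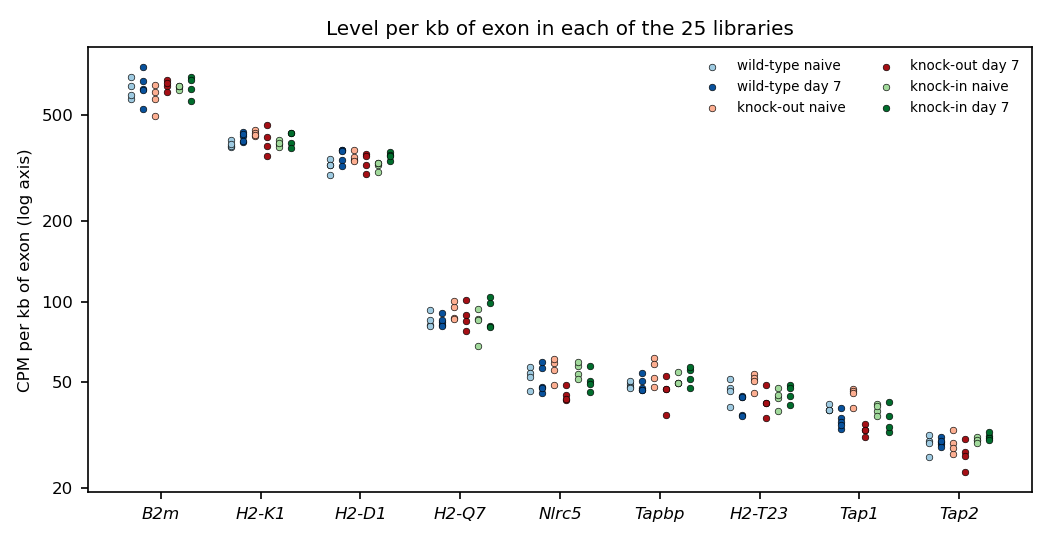
Level of each gene in CPM per kb of exon (log axis), 1 point per library, coloured by group. The 4 upper genes keep their order in all 25 libraries, while Nlrc5 and Tapbp overlap near 50 CPM per kb.

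The heavy chain RNA was mostly classical. Summed over 14 heavy chain genes of the H2-K, H2-D, H2-Q and H2-T groups, H2-K1 took a median of 36.3% of the counts (34.1% to 38.5% over libraries) and H2-D1 a median of 26.6% (24.9% to 28.7%). H2-Q7 took a median of 11.1% (9.67% to 13.0%), H2-Q4 8.41% and H2-T23 3.97%. The sum was 3230 ± 90.4 CPM (SD, n = 4) in wild-type naive and 3295 ± 120 CPM (SD, n = 5) in wild-type day 7 cells.

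The 9 genes differed in how much they varied between libraries. The coefficient of variation over all 25 libraries ran from 6.06% for H2-K1 to 11.5% for Tap1, with a median of 9.57% over the 9 genes. Among the 1655 tested genes with a mean of at least 100 CPM the median was 7.77%, with quartiles at 6.35% and 9.84%. The highest library exceeded the lowest by 1.25-fold for H2-D1 and by 1.64-fold for Tapbp, the extremes of the set.

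**Figure D2:**
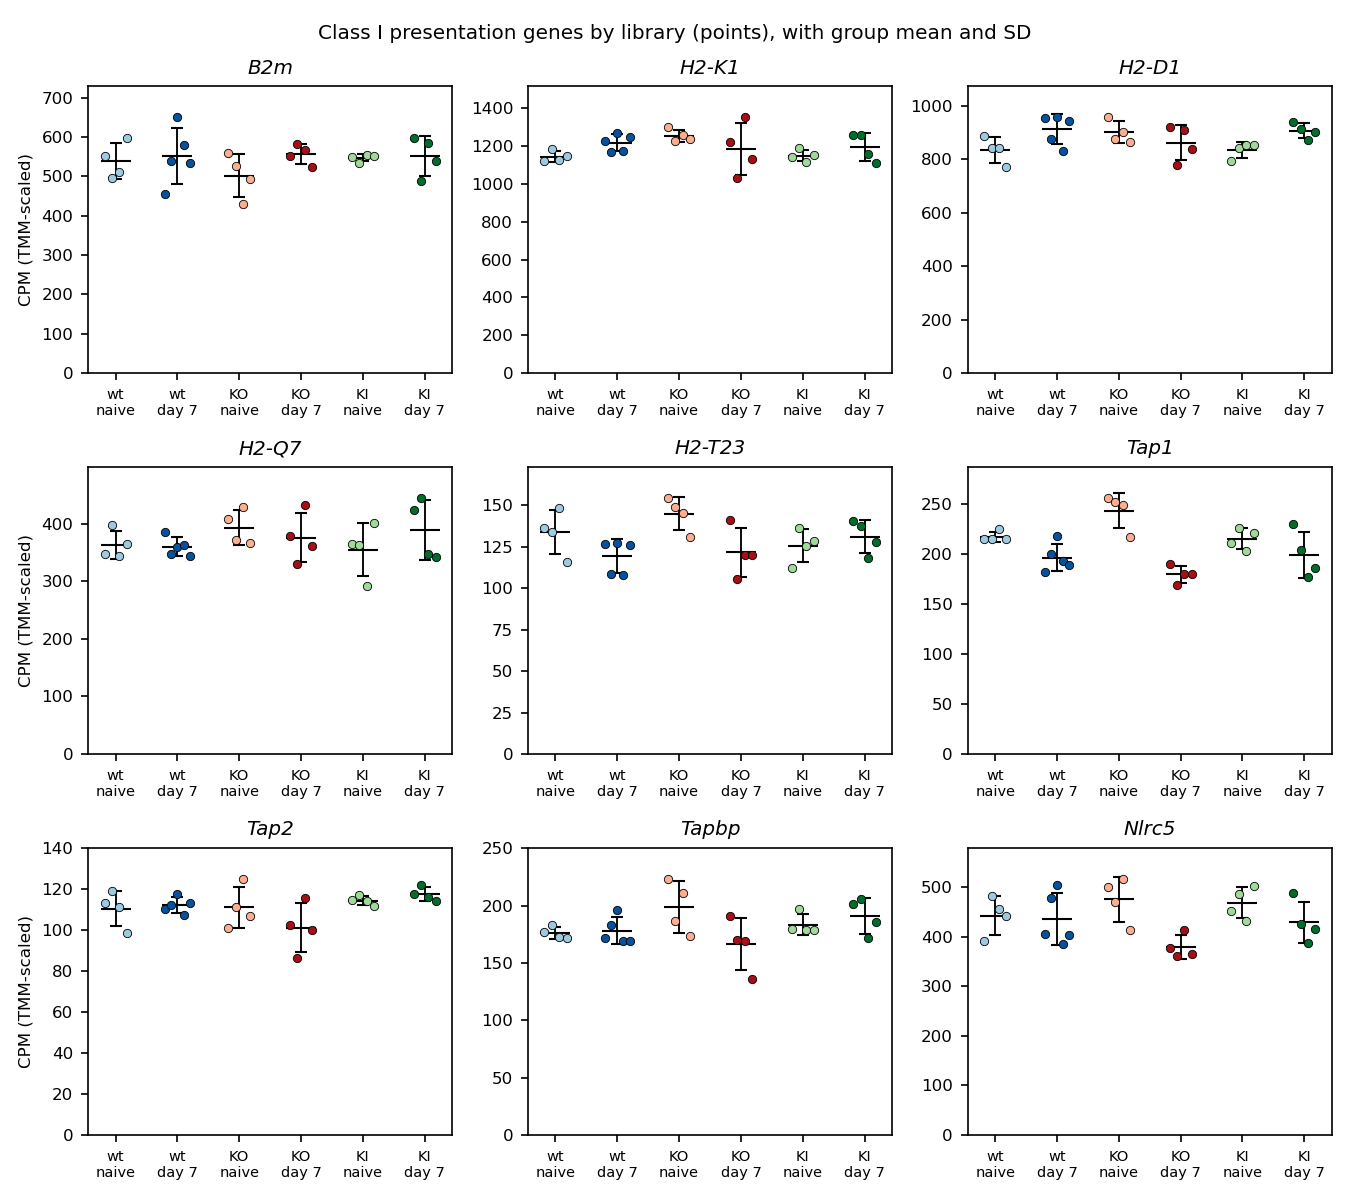
CPM of each of the 9 genes by library (points), with the mean and SD of each group (horizontal line and bars), on axes that start at 0. KO is knock-out, KI is knock-in and wt is wild-type. The knock-out day 7 points of Tap1 and Nlrc5 lie below all knock-out naive points; groups overlap in most other panels.

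The first question was whether class I genes differed between naive cells and cells taken at day 7 of EAE. Few passed the test, and those that did were lower at day 7. In wild-type cells none of the 9 genes passed the edgeR quasi-likelihood test at an adjusted p of 0.05, where 2.14% of all tested genes did. With an unadjusted p, 2 genes were under 0.05. The share of all tested genes at that unadjusted cut is not reported here or below. Counts at that cut therefore cannot be read as more or fewer than usual. DESeq2 and limma voom also called none. Shares of all tested genes called are given here and below for the main edgeR fit only. All 95% intervals of the log2 fold change lay between -0.33 and 0.24, which is a fold of 0.794 to 1.18.

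B2m in wild-type cells stood at 552, 495, 511 and 597 CPM in the naive libraries and at 456, 539, 652, 579 and 534 CPM at day 7. The day 7 libraries covered the whole naive range, and the log2 fold change was 0.04 ± 0.08 (SE). H2-K1 stood at 1121, 1186, 1126 and 1145 CPM naive and at 1225, 1168, 1268, 1175 and 1250 CPM at day 7. Of the naive libraries only replicate 2 reached into the day 7 range, and the difference did not pass (log2 0.09 ± 0.06 SE, edgeR adjusted p = 0.516).

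H2-D1 gave the highest estimate of the set in wild-type cells, from 835 ± 48.3 CPM (SD, n = 4) to 913 ± 56.9 CPM (SD, n = 5), with a log2 fold change of 0.13 ± 0.06 (SE) and an edgeR adjusted p of 0.27. H2-T23 gave the lowest, -0.16 ± 0.08 (SE), with an edgeR adjusted p of 0.378. Tap1 was at 214.9, 215.2, 225.1 and 214.97 CPM naive and at 182.2, 200.6, 217.9, 193.2 and 188.8 CPM at day 7, and its log2 fold change was -0.15 ± 0.07 (SE; edgeR adjusted p = 0.302). A single day 7 library, replicate 3, lay inside the naive range of Tap1. Of all tested genes, 5.86% had wild-type naive and day 7 libraries that did not overlap, and none of the 9 genes was among them.

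In knock-out cells Tap1 fell. It stood at 256.6, 251.9, 249.4 and 217.3 CPM in the naive libraries and at 190.0, 169.1, 180.7 and 179.8 CPM at day 7. Every day 7 library was below every naive library. The log2 fold change was -0.44 ± 0.07 (SE), so that Tap1 fell by 26.1% (95% interval of the log2 change -0.58 to -0.29; edgeR adjusted p = 0.00159). It was the only one of the 9 genes called in the knock-out, where 0.408% of all tested genes were called. Without knock-out naive replicate 4 and knock-out day 7 replicate 3 the log2 change was -0.49 and the edgeR adjusted p was 0.00274. With mitochondrial, ribosomal RNA and haemoglobin genes taken out of the fit Tap1 gave -0.43 (edgeR adjusted p = 0.00183).

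Nlrc5 was the other gene whose knock-out libraries separated. It stood at 501, 470, 517 and 414 CPM naive and at 378, 362, 413 and 365 CPM at day 7, so the lowest naive library was just above the highest day 7 library. The log2 fold change of -0.32 ± 0.09 (SE) did not pass, with an edgeR adjusted p of 0.0849. Nlrc5 did pass with DESeq2 (adjusted p = 0.0275), without the filter on low counts (edgeR adjusted p = 0.000654) and when knock-out naive replicate 4 was left out (log2 change -0.39, edgeR adjusted p = 0.0402). It did not pass without both of the knock-out libraries named above (log2 change -0.42, edgeR adjusted p = 0.0562). Non-overlapping knock-out libraries were seen for 2 of the 9 genes, Tap1 and Nlrc5, and for 5.07% of all tested genes.

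The other 7 genes did not pass in the knock-out. Tapbp gave -0.25 ± 0.08 (SE) and H2-T23 -0.25 ± 0.09 (SE) on the log2 scale, with edgeR adjusted p-values of 0.179 and 0.198. Tapbp passed only without the filter on low counts (log2 change -0.26, edgeR adjusted p = 0.0481). Tap2, the partner of Tap1 in the transporter, stood at 101, 111, 125 and 107 CPM naive and at 103, 86.5, 115 and 99.9 CPM at day 7. These groups overlapped, and the log2 fold change was -0.13 ± 0.07 (SE; edgeR adjusted p = 0.468). B2m was the one gene with an estimate above 0, 0.15 ± 0.09 (SE; edgeR adjusted p = 0.491). Of the 9 estimates 8 were below 0, with a median of -0.13, beside a median of -0.0027 over all tested genes.

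In knock-in cells none of the 9 genes was called, where 2.02% of all tested genes were, and no unadjusted p was under 0.05. DESeq2 and limma voom called none either. Estimates ran from -0.13 for Nlrc5 to 0.13 for H2-Q7 on the log2 scale, and all intervals lay between -0.30 and 0.32. Tap1 stood at 211.7, 226.1, 203.6 and 221.6 CPM naive and at 229.8, 204.3, 177.0 and 185.9 CPM at day 7. The knock-in groups overlapped, since the highest Tap1 library was a day 7 one, and the log2 fold change was -0.11 ± 0.07 (SE; edgeR adjusted p = 0.497). H2-D1 libraries did not overlap in the knock-in: 793, 842, 855 and 855 CPM naive against 939, 912, 872 and 904 CPM at day 7. The difference did not pass (log2 0.12 ± 0.06 SE, edgeR adjusted p = 0.355), and 11.0% of all tested genes had non-overlapping knock-in libraries.

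Averaged over the 3 genotypes, with each given equal weight, 2 of the 9 genes fell and none rose, where 11.2% of all tested genes were called. Tap1 fell by 14.9% (log2 -0.23 ± 0.04 SE, 95% interval -0.32 to -0.15, edgeR adjusted p = 0.000306). Nlrc5 fell by 10.4% (log2 -0.16 ± 0.05 SE, 95% interval -0.26 to -0.06, edgeR adjusted p = 0.0357). The estimates of Nlrc5 within wild-type, knock-out and knock-in were -0.02, -0.32 and -0.13, and none of them passed alone. The average uses the same libraries as the comparisons within genotypes, so it is not separate evidence.

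The call of Tap1 in the average remained in all 25 fits that left out 1 library (edgeR adjusted p from 3.66e-05 to 0.000962), and without the 2 knock-out libraries named above the log2 change was -0.25 (edgeR adjusted p = 0.00033). That of Nlrc5 was lost in 15 of the 25, with the log2 change between -0.18 and -0.14 and edgeR adjusted p up to 0.0786. These were the fits without wild-type naive replicates 2 and 3, wild-type day 7 replicates 1, 4 and 5, knock-out naive replicates 1 and 3, knock-out day 7 replicates 1, 2 and 4, knock-in naive replicates 2 and 4, and knock-in day 7 replicates 2, 3 and 4. It was also lost with a stricter filter on low values (edgeR adjusted p = 0.0509) and without mitochondrial, ribosomal RNA and haemoglobin genes (edgeR adjusted p = 0.0515), where Tap1 gave -0.22 (edgeR adjusted p = 0.000477). Without the 2 knock-out libraries together Nlrc5 gave -0.19 (edgeR adjusted p = 0.0157).

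The light chain and the heavy chains did not pass in the average. B2m gave 0.07 ± 0.05, H2-K1 0.02 ± 0.03, H2-D1 0.06 ± 0.03, H2-Q7 0.02 ± 0.05 and H2-T23 -0.12 ± 0.05 on the log2 scale (SE), with edgeR adjusted p-values from 0.136 to 0.876. The 14 heavy chain genes summed to 1 row, which does not depend on how reads are split among these 14, gave -0.01 ± 0.03 (SE; 95% interval -0.08 to 0.06; edgeR adjusted p = 0.909). Tap2 and Tapbp gave -0.02 ± 0.04 and -0.06 ± 0.05 (SE). The intervals of all 9 genes lay between -0.32 and 0.17.

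**Figure D3:**
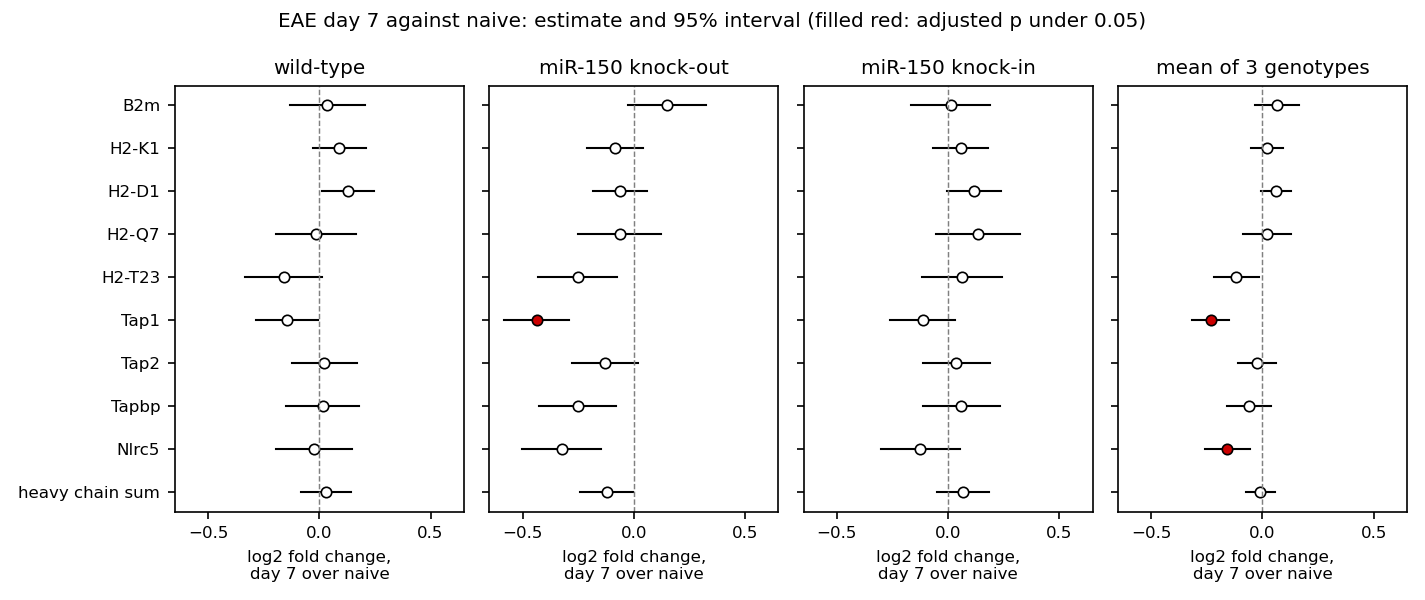
Log2 fold change of day 7 over naive for the 9 genes and the summed heavy chains, with 95% intervals, in each genotype and averaged over the 3. Filled red circles have an adjusted p under 0.05: Tap1 in the knock-out, and Tap1 and Nlrc5 in the average.

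The second question was whether the miR-150 genotype changed these genes. None of the 9 genes was called in any of the 8 genotype comparisons. In naive cells, knock-out against wild-type, 8 of 9 estimates were above 0, from -0.10 for B2m to 0.17 for Tapbp on the log2 scale, with a median of 0.11. Tap1 gave 0.16 ± 0.07 (SE; edgeR adjusted p = 0.616) and H2-K1 0.13 ± 0.06 (SE; edgeR adjusted p = 0.646), and these were the 2 genes with an unadjusted p under 0.05. Of all tested genes 0.0204% were called. All intervals lay between -0.28 and 0.35.

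At day 7 the knock-out estimates lay lower. Against wild-type, 6 of 9 were below 0, from -0.20 for Nlrc5 (edgeR adjusted p = 0.414) to 0.06 for H2-Q7, with 2 unadjusted p-values under 0.05. Of all tested genes 0.0476% were called. Against knock-in at day 7, 8 of 9 estimates were below 0 and the lowest was Tap2 at -0.21 ± 0.07 (SE; edgeR adjusted p = 0.259), where 0.374% of all tested genes were called. Against knock-in in naive cells 7 of 9 were above 0, up to 0.21 for H2-T23 (edgeR adjusted p = 0.45), where 0.163% of all tested genes were called. These last 2 comparisons each held 3 genes with an unadjusted p under 0.05.

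The knock-in gave estimates near 0. Against wild-type they ran from -0.09 to 0.08 in naive cells and from -0.03 to 0.13 at day 7, with no unadjusted p under 0.05 and intervals between -0.27 and 0.30. The shares of all tested genes called were 0.0136% in naive cells and 0.0% at day 7. DESeq2 and limma voom called none of the 9 genes in any genotype comparison.

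Whether the day 7 change itself differed between genotypes was tested directly. For knock-out against wild-type, 8 of 9 estimates were below 0, with a median of -0.17 beside -0.01 over all tested genes, and 5 had an unadjusted p under 0.05. The lowest were Nlrc5 at -0.30 ± 0.12 (SE; edgeR adjusted p = 0.552) and Tap1 at -0.29 ± 0.10 (SE; edgeR adjusted p = 0.516). None passed after adjustment, and 0.0% of all tested genes did. At the unadjusted cut no share of all tested genes stands beside the 5. This contrast contains the naive difference between knock-out and wild-type with its sign reversed. Estimates above 0 in naive cells and below 0 here are therefore partly the same values, and the 9 genes are not independent. Without knock-out naive replicate 4 and knock-out day 7 replicate 3 the values were -0.41 for Nlrc5 and -0.35 for Tap1, with edgeR adjusted p-values of 0.368 and 0.365. The fall of Tap1 in the knock-out was thus not shown to differ from the wild-type change after adjustment over all tested genes. Taken alone, Tap1 had an unadjusted edgeR p of 0.00633 and a 95% interval of the difference from -0.49 to -0.09. That interval is not adjusted for the number of genes tested. Tap1 was also singled out because it was called in the knock-out in these same libraries. Its unadjusted p and interval therefore tend to overstate the difference. For knock-in against wild-type the estimates ran from -0.10 to 0.22 with no unadjusted p under 0.05, and again 0.0% of all tested genes passed.

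**Figure D4:**
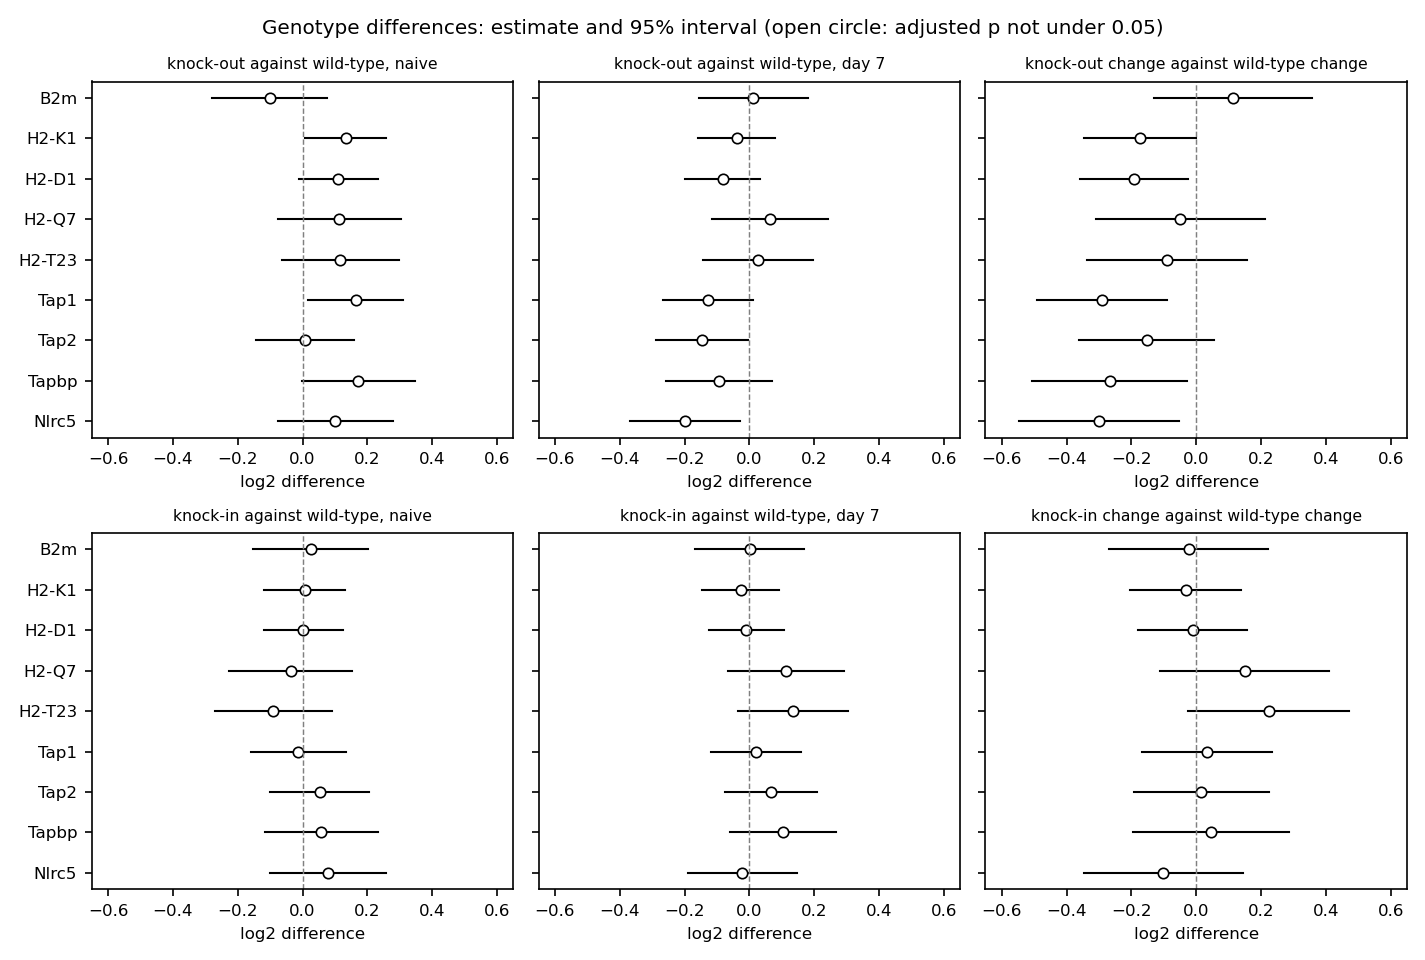
Log2 differences of the 9 genes between genotypes in naive cells (left), at day 7 (middle) and in the day 7 change (right), for knock-out (upper row) and knock-in (lower row) against wild-type, with 95% intervals. No circle is filled because none of the 9 genes passed. The knock-out estimates are mostly above 0 in naive cells and mostly below 0 in the change. The change contains the naive difference with its sign reversed, from the same libraries, so these signs are not separate observations.

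The lists that follow are counted in the average over genotypes, where 11.2% of all tested genes were called and their median log2 change was -0.0036. Other class I heavy chains were described from a list of 15, of which 12 were tested. In the average over genotypes 2 fell and none rose, with a median log2 change of 0.0011. H2-T24 gave -0.52 ± 0.09 (SE; edgeR adjusted p = 0.000187), from 127 ± 26.7 CPM (SD, n = 4) in wild-type naive to 83.2 ± 15.5 CPM (SD, n = 5) in wild-type day 7 cells. H2-T22, whose product is a ligand of some gamma-delta T cell receptors, gave -0.17 ± 0.05 (SE; edgeR adjusted p = 0.0147). Within the knock-out H2-T22 fell by 0.41 on the log2 scale (edgeR adjusted p = 0.0149). That call was lost without knock-out naive replicate 1 (log2 change -0.33, edgeR adjusted p = 0.0982) and without knock-out naive replicate 3 (log2 change -0.39, edgeR adjusted p = 0.0595). It was also lost with limma voom (adjusted p = 0.0792) and in a fit restricted to knock-out libraries (edgeR adjusted p = 0.108). Without the 2 knock-out libraries named above H2-T22 gave -0.47 (edgeR adjusted p = 0.0149). In knock-out against knock-in naive cells all 12 estimates were above 0, with a median of 0.30 beside 0.0091 over all tested genes. H2-T22 was the 1 of the 12 that was called there (log2 0.39 ± 0.08 SE, edgeR adjusted p = 0.0333), where 0.163% of all tested genes were. The shift was not particular to heavy chains. In that comparison 29 of 33 interferon-stimulated genes were above 0 (median 0.45), and 9 of 9 MHC class II genes (0.49). So were 11 of 12 CD8, natural killer and gamma-delta T cell markers (0.76) and 9 of 11 B cell markers (0.56). Other lists lay near 0, such as peptide loading genes (7 of 12 above 0, median 0.02) and interferon receptors and kinases (2 of 10, -0.08).

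Peptide loading uses chaperones shared with other glycoproteins. Of 12 such genes, 2 rose and 1 fell in the average. Hspa5, the endoplasmic reticulum chaperone BiP, gave 0.40 ± 0.05 (SE; edgeR adjusted p = 8.25e-06) and was also called in wild-type cells (log2 0.49, edgeR adjusted p = 0.00243) and in knock-in cells (log2 0.37, edgeR adjusted p = 0.0325). Pdia6, a disulphide isomerase, gave 0.20 ± 0.06 (SE; edgeR adjusted p = 0.0406), and Uggt1, which checks glycoprotein folding, gave -0.10 ± 0.03 (SE; edgeR adjusted p = 0.0196). Uggt1 lost its call with no filter on low counts (edgeR adjusted p = 0.127). The call of Pdia6 was lost in 14 of the 25 fits that left out 1 library.

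The proteasome supplies the peptides. Of 9 constitutive, inducible and activator subunits 1 rose and 1 fell in the average. Psme2, a subunit of the PA28 activator, gave -0.22 ± 0.04 (SE; edgeR adjusted p = 0.000527), and Psmb6, a constitutive catalytic subunit, gave 0.20 ± 0.06 (SE; edgeR adjusted p = 0.0308). Psmb6 lost its call in 8 of the 25 fits that left out 1 library. The inducible catalytic subunits Psmb8 and Psmb9 are named for their place, since they lie between and beside Tap1 and Tap2. Neither passed: Psmb8 gave -0.07 ± 0.04 and Psmb9 -0.06 ± 0.05 (SE), with edgeR adjusted p-values of 0.321 and 0.576. Psmb9 starts next to Tap1 on the opposite strand and did not pass in the knock-out either (log2 -0.27 ± 0.09 SE, edgeR adjusted p = 0.198).

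Of 18 transcription factors known to act on class I promoters or on interferon responses, 1 rose and 2 fell in the average. Irf9, which takes part in type I interferon signalling, gave -0.33 ± 0.06 (SE; edgeR adjusted p = 0.00106). Stat3 gave 0.16 ± 0.05 (SE; edgeR adjusted p = 0.0392) and lost its call in 12 of the 25 fits that left out 1 library. Of 10 tested receptors, kinases and feedback genes of interferon signalling, 2 rose and 2 fell. The feedback inhibitor Socs3 rose in each genotype (log2 1.44, 1.28 and 1.82 in wild-type, knock-out and knock-in; edgeR adjusted p = 0.000753, 0.00948 and 8.68e-05). Socs1 gave 0.43 ± 0.12, Jak1 -0.13 ± 0.02 and the phosphatase gene Ptpn2 -0.16 ± 0.05 (SE), with edgeR adjusted p-values of 0.0155, 0.000456 and 0.0298. Ptpn2 lost its call in 9 of the 25 fits that left out 1 library. Without the 2 knock-out libraries named above Socs1, Stat3, Ptpn2, Psmb6 and Pdia6 all lost their calls, with edgeR adjusted p-values of 0.0567, 0.12, 0.0923, 0.0677 and 0.0868.

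Many interferon-stimulated genes fell in the average over genotypes. Of 33 such genes, none of them among the 9, 18 fell and none rose in the average, with a median log2 change of -0.38, where 11.2% of all tested genes were called. Within wild-type, knock-out and knock-in cells edgeR called 0, 1 (Ifit2) and 0 of the 33, DESeq2 0, 4 and 0 and limma voom 2, 0 and 1, all of them falls. Of all tested genes edgeR called 2.14%, 0.408% and 2.02% in these genotypes. The shares for DESeq2 and limma voom are not reported here. Among the 33 genes the edgeR counts at an unadjusted p under 0.05 were 10, 28 and 5, with no share of all tested genes at that cut beside them. The median log2 changes were -0.34, -0.60 and -0.14. Without the 2 knock-out libraries named above 18 fell in the average and none within the knock-out, where 30 had an unadjusted p under 0.05. Ifit2 gave -0.40 ± 0.07, Gbp7 -0.40 ± 0.09 and Ddx58, a sensor of viral RNA, -0.28 ± 0.06 (SE), with edgeR adjusted p-values of 0.000168, 0.0032 and 0.00416. Summed over the 33 genes, the libraries ran from 1838 to 2464 CPM in wild-type naive and from 1363 to 2258 CPM in wild-type day 7 cells. The knock-out sums ran from 1550 to 3030 CPM naive and from 1351 to 1600 CPM at day 7, and the knock-in sums from 1720 to 2253 CPM naive and from 1351 to 1968 CPM at day 7. Naive and day 7 sums overlapped in all 3 genotypes. The part of these levels in the Tap1 and Nlrc5 results was not tested.

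Across the 25 libraries the 9 genes differed in how they went with that sum. Tap1 had a Pearson r of 0.78 (Spearman 0.74; 0.73 without the 2 libraries farthest from the median sum; 0.64 once group means were removed). Nlrc5 had an r of 0.65 (Spearman 0.64; 0.51 once group means were removed). H2-K1 had 0.02, H2-D1 0.07, H2-Q7 -0.09, Tap2 0.06 and B2m 0.15, while H2-T23 had 0.53 and Tapbp 0.49. Once group means were removed the order was another: B2m had 0.53, Tapbp 0.48, H2-T23 0.38 and H2-D1 0.31, while H2-K1 had 0.02, Tap2 -0.11 and H2-Q7 -0.13. These are descriptions over libraries that share stage, genotype and scaling. The library with the highest sum, knock-out naive replicate 1 at 3030 CPM, also had the highest Tap1, 257 CPM. Knock-out naive replicate 4 had a sum of 1550 CPM and Tap1 at 217.3 CPM. Knock-out day 7 replicate 2 had a sum of 1600 CPM and Tap1 at 169.1 CPM. These are single libraries, and the part of the sum in the Tap1 levels was not tested.

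**Figure D5:**
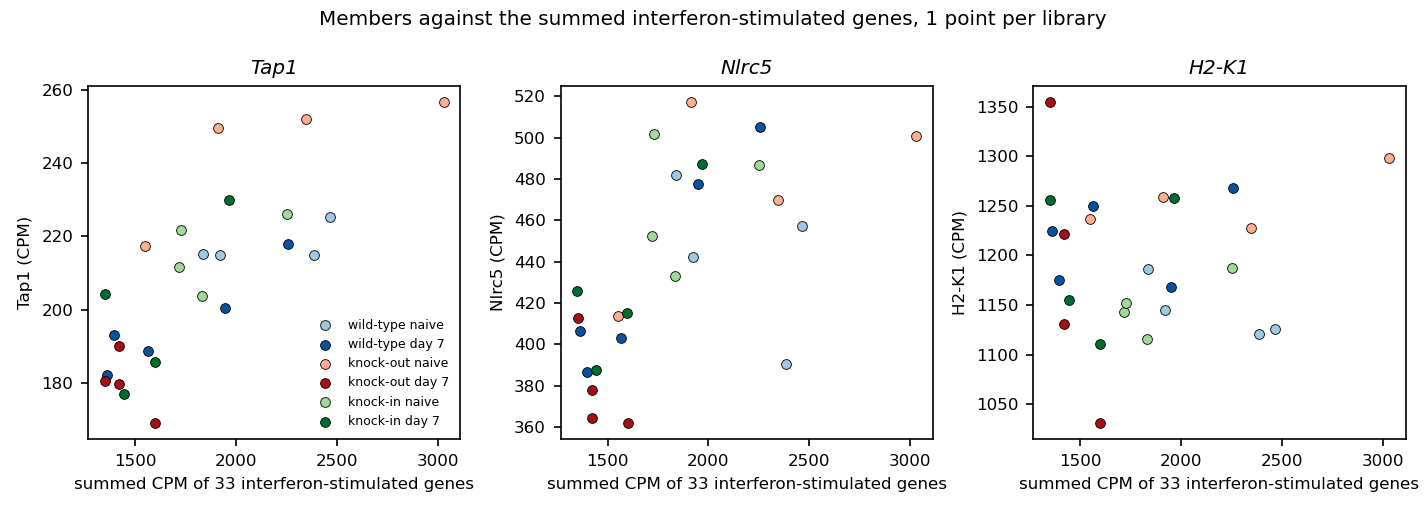
Tap1, Nlrc5 and H2-K1 (CPM, axes not starting at 0) against the summed CPM of 33 interferon-stimulated genes, 1 point per library, coloured by group. Tap1 and Nlrc5 are higher in libraries with a higher sum (r of 0.78 and 0.65), and H2-K1 is not (r of 0.02).

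Among themselves the 9 genes made 36 pairs, with Pearson r of log2 CPM from -0.36 to 0.82, a median of 0.38 and 28 pairs above 0. Tap1 and Nlrc5 were the most alike (0.82, and 0.77 once group means were removed), although one lies on chromosome 17 and the other on chromosome 8. H2-K1 and H2-D1 had 0.71 and H2-K1 and H2-Q7 0.70. Tap1 and Tap2 had 0.33. All 8 pairs with B2m were below 0, from -0.36 with H2-T23 to -0.08 with Tapbp, but once group means were removed 3 of the 8 were above 0 (Tap1 0.27, Nlrc5 0.13 and Tapbp 0.12). The 5 tested genes most like the mean of the set were Pxn (0.76), Gm22442 (0.75), Ap5b1 (0.74), Pstpip1 (0.74) and H2-T22 (0.73). Those most like Tap1 were Gm12216, Gbp8, H2-T22, Mov10 and Igtp, from 0.85 to 0.82.

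The stretch of chromosome 17 that holds 7 of the 9 genes was also counted. Between the start of Tapbp and the end of H2-T23, 119 genes were tested, and in the average 8 rose and 2 fell, which is 8.40%, beside 11.2% of all tested genes. The 2 that fell were Tap1 and H2-T24. The median log2 change of the 119 was 0.05.

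Markers of other cell types were summed beside these results. Nearly all nucleated cells express class I genes, so in sorted bulk RNA a change in the mix of cells and a change per cell cannot be told apart. The 9 MHC class II genes summed to 31.4 to 83.7 CPM over all libraries, led by H2-Ob at 15.1 to 26.8 CPM, while H2-Aa was at most 5.33 CPM and at 0 in 2 libraries. Knock-out naive libraries ran from 34.5 to 83.7 CPM and knock-out day 7 libraries from 31.4 to 40.8 CPM. Of the 9 none was called in any of the 4 day 7 comparisons.

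The 12 B cell markers summed to 141 to 393 CPM, of which Ighm made up 135 to 184 CPM, and the highest sum, in knock-in day 7 replicate 4, came with 198 CPM of Igkc. The 15 myeloid and dendritic markers summed to 5.62 to 27.6 CPM, with Cd14 at 0 in 23 libraries and Xcr1 in 20. Of 14 CD8, natural killer and gamma-delta T cell markers 12 were tested, and in the average 1 rose and 5 fell. Of the 12 estimates 3 were above 0 and 9 below, with a median log2 change of -0.84. The sums of the 14 were 55.6 to 66.0 CPM in wild-type naive and 42.4 to 55.0 CPM in wild-type day 7 cells. In the knock-out they were 57.7 to 85.8 CPM naive and 47.0 to 73.9 CPM at day 7. In the knock-in they were 48.5 to 58.6 CPM naive and 45.9 to 52.7 CPM at day 7. Prf1 led these sums and had a higher mean at day 7: 18.2 to 22.7 CPM in wild-type, 17.5 to 22.8 CPM in knock-out and 17.5 to 23.9 CPM in knock-in cells. The 8 erythroid and platelet markers summed to at most 10.3 CPM, with Pf4 and Ppbp at 0 in all 25 libraries. The part of these cells in the class I results was not tested.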

How the data were processed

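Per the labels' protocols, RNA extraction used miRNeasy kits, library preparation Takara's SMARTer Stranded Total RNA-Seq Pico kit, with paired-end sequencing on a NovaSeq. Reads were analysed on mm10 and with DESeq2, per the submitters' processing notes; the aligner, the counting tool, its strand setting and the annotation are not given in the sources used here. The values are the authors' raw counts, deposited as 1 table with an Ensembl identifier per row. Of its 46078 identifiers 45143 had a symbol in GENCODE M21.

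Genes were kept by filterByExpr in edgeR 4.0.16 (R 4.3.3; minimum count 10, minimum total 15), scaled by TMM and fitted by quasi-likelihood over all 25 libraries with 1 mean per group. The 12 comparisons were tested two-sided, with Benjamini-Hochberg adjustment over 14703 genes at a threshold of 0.05. CPM values are TMM-scaled. Correlations used log2 CPM with a prior count of 2. No 2 libraries of a group agreed within sampling noise (lowest chi-square per degree of freedom 5.40).

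The alternatives were RLE size factors, DESeq2 1.42.0, no filter, limma 3.58.1 voom with quality weights, a stricter filter (5 CPM in 4 libraries), only the groups compared, no mitochondrial, ribosomal RNA or haemoglobin genes, the library number as a covariate, and each library left out. Leaving out 2 knock-out libraries together was chosen after seeing the data. The 9 genes and all lists were chosen with earlier results of these data known. By rule the text names, beside the 9 genes, up to 4 called genes per class I or interferon list with the smallest p in the average over genotypes, and the genes most like the set or Tap1. Some genes of these lists are counted but not reported here by name.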

Additional observations from a re-analysis of the deposited data

Results flagged for a closer look

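In 2 of the 60 combinations of a group and a gene or sum, 1 library lay far from the others of its group, by a criterion that chance meets in about 1 in 20. Tap1 in wild-type naive replicate 3 was at 225.1 CPM, while the other 3 libraries lay between 214.9 and 215.2 CPM. Tapbp in knock-in naive replicate 2 was at 196.9 CPM, while the others lay between 178.7 and 179.4 CPM. In both groups the other libraries were within 1 CPM of each other, and neither gene was called in wild-type or knock-in cells.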

How the results depend on the processing

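Tap1 fell in the knock-out and in the average over genotypes under every alternative tried, with edgeR, DESeq2 or limma adjusted p-values up to 0.0204 and 0.000962. The count of the 9 genes called in the knock-out became 2 with DESeq2 and 3 with no filter, and lay between 1 and 2 with 1 library left out. The count in the average became 1 with the stricter filter and 1 without mitochondrial, ribosomal RNA and haemoglobin genes, and lay between 1 and 2 with 1 library left out. The shares of all tested genes called in these alternative fits are not reported here. Their counts therefore cannot be read as more or fewer than usual. With fewer libraries or genes tested the adjustment differs by construction; otherwise the cause was not tested. In the other 10 comparisons no alternative called any of the 9 genes. Of the 60 losses of a call with 1 library left out, 43 fell on Pdia6, Psmb6, Stat3 and Ptpn2, 15 on Nlrc5 and 2 on H2-T22.

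Signs turned only for values that were close to 0 and not called. In the average, limma voom gave -0.0060 for H2-K1 and -0.0060 for H2-Q7, the 2 knock-out libraries left out together gave -3.52e-05 and -0.012, and the stricter filter gave 0.0035 for the summed heavy chains (log2). For B2m in the knock-in limma voom gave -0.00053, and for H2-Q7 in knock-out against wild-type at day 7 leaving out the 2 libraries gave -0.013. With 1 library left out, the log2 change in wild-type ranged from -0.027 to 0.10 for B2m, -0.039 to 0.031 for H2-Q7, -0.029 to 0.061 for Tap2, -0.020 to 0.039 for Tapbp and -0.079 to 0.022 for Nlrc5. In the knock-in B2m ranged from -0.029 to 0.072. In the average H2-Q7 ranged from -0.0096 to 0.039, Tap2 from -0.042 to 0.0023 and the summed heavy chains from -0.020 to 0.0074. At day 7 H2-Q7 ranged from -0.013 to 0.12 in knock-out against wild-type, H2-K1 from -0.052 to 0.0066 in knock-in against wild-type and B2m from -0.044 to 0.051 in knock-out against knock-in. No paired analysis was possible because the labels give no replicate numbers.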
